A study of Homo sapiens with 4 samples.

Results

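The long non-coding RNAs (lncRNAs) described here are the transcripts from which microRNAs are cut. They are MIRLET7BHG, MIR205HG, MIR22HG, MIR31HG, MIR17HG and MIR100HG, 6 of the 14416 genes that carried at least 1 cross-linked site in PDCD4-iCLIP or in its isotype control (IgG). A site was taken as a member where the gene label attached to it held one of these symbols exactly, whatever its score, which gave 542 of 158922 sites for PDCD4 and 197 of 111361 sites for IgG. In iCLIP, UV light cross-links protein to RNA and the protein is immunoprecipitated. Reverse transcriptase often halts where the protein was attached, and the cDNA end therefore maps the contact to the nucleotide. Both groups were MCF10A, an untransformed breast epithelial cell line of wild-type genotype, grown in medium with serum, epidermal growth factor, insulin, hydrocortisone and cholera toxin. By the labels the groups differed in the antibody alone, which was raised against PDCD4 for 2 replicates and was the isotype control for the other two. The replicates of each group were deposited as 1 merged list, so there is no spread between replicates and no test between PDCD4 and IgG. All intervals are 95% intervals and cover counting error only.

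A microRNA host gene is transcribed as a long primary transcript in which each microRNA lies within a stem-loop, the hairpin. In the nucleus, DROSHA with DGCR8 cuts the hairpin out, XPO5 exports it, DICER1 trims it, and an Argonaute protein (AGO1 to AGO4) takes up the mature strand, whose seed (bases 2 to 8) pairs with target mRNAs. MicroRNAs of the let-7 family restrain growth and are widely expressed in differentiated epithelium, miR-205 marks basal epithelial cells, and the cluster in MIR17HG promotes proliferation. PDCD4 is a tumour suppressor known for binding the helicase eIF4A, and it is itself a target of a microRNA, miR-21.

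The 6 hosts held 16 annotated hairpins on their own strand, and RefSeq (GRCh38.p14) gave 31 mature sequences for them. The hairpins lay in exons in 10 cases, in introns in 5, and across an exon boundary for MIR205. Mature sequences from each host are shown with the seed in capitals, so that the hairpins named later can be told apart by their products. The let-7 members share a seed, are encoded in the last exon of MIRLET7BHG (let-7a from MIRLET7A3, and let-7b) and recur in an intron of MIR100HG (let-7a from MIRLET7A2):
hsa-let-7a-5p: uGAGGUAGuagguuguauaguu
hsa-let-7b-5p: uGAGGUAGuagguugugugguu

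Another microRNA of MIRLET7BHG with sites nearby was miR-3619, whose hairpin lies in an intron (miR-4763, in the last exon, is not shown):
hsa-miR-3619-5p: uCAGCAGGcaggcuggugcagc
hsa-miR-3619-3p: gGGACCAUccugccugcugugg

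Within MIR17HG, 3 seeds are each shared by a pair of mature strands, and the pairs of 2 of these seeds are shown:
hsa-miR-17-5p: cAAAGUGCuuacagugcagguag
hsa-miR-20a-5p: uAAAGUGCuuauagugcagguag
hsa-miR-19a-3p: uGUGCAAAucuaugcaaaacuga
hsa-miR-19b-3p: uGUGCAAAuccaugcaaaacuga

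The remaining hosts are represented by their best known mature strands, each with a seed of its own:
hsa-miR-205-5p: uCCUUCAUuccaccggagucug
hsa-miR-22-3p: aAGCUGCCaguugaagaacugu
hsa-miR-31-5p: aGGCAAGAugcuggcauagcu
hsa-miR-100-5p: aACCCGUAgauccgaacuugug
hsa-miR-125b-5p: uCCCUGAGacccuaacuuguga

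The score of a site is the number of cDNAs counted there. The PDCD4 list summed to 409308 cDNAs and the IgG list to 276139, and the members took 1500 (0.366%) and 533 (0.193%) of them. Member scores reached a maximum of 9 for PDCD4 and 7 for IgG, against 87 and 22 over the whole lists. The methods of the study used a score of 5 as a filter, which 17 PDCD4 and 4 IgG member sites passed. These were 3.14% and 2.03% of member sites, against 1.48% and 0.69% of all sites in the respective lists. Of the 542 PDCD4 member positions, 2 were also in the IgG list, 1 in MIRLET7BHG and 1 in MIR205HG. The share over all listed sites is not given here, so 2 cannot be called few or many. The methods describe the removal of IgG sites from PDCD4 before peaks were called. For the cell type, all 10 epithelial and basal keratin, adhesion and lineage markers (KRT5, KRT14, KRT17, KRT7, KRT8, KRT18, CDH1, EPCAM, TP63 and ITGA6) had a listed site, whereas none of 6 markers of blood, endothelial, muscle and fibroblast cells (PTPRC, PECAM1 and DES among them) did.

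MIRLET7BHG, the host of let-7a-3 and let-7b, carried most of the signal. It lies at chr22:46053869-46113928 on the plus strand (GRCh38), spans 60060 nt and has 9 annotated transcripts. PDCD4 was cross-linked at 401 sites with 1133 cDNAs, and IgG at 62 sites with 195 cDNAs. Relative to the size of each list this was 27.7 cDNAs per 10000 for PDCD4 and 7.06 for IgG. The log2 ratio of these shares, computed with a pseudocount of 1 cDNA, was 1.96 (1.75 to 2.18), or 3.90-fold. MIRLET7BHG had the largest summed PDCD4 score of any lncRNA gene, and it held 75.5% of the member cDNAs in the PDCD4 list against 36.6% in the IgG list. The lists carry no measure of RNA abundance, and in a pooled lysate more cells with an RNA and more RNA per cell cannot be told apart.

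MIR22HG and MIR17HG also took larger shares of the PDCD4 list, from few cDNAs. MIR22HG (chr17:1711447-1717174, minus strand), the host of miR-22, had 23 cDNAs at 8 sites for PDCD4 and 3 cDNAs at 1 site for IgG. Without a pseudocount the ratio was 5.17-fold, with an exact counting interval of 1.56 to 26.9, and with the pseudocount the log2 ratio was 2.02 (0.49 to 3.54). MIR17HG (chr13:91347686-91397592, plus strand), the host of the miR-17 to miR-92a cluster, had 20 cDNAs at 10 PDCD4 sites and 4 cDNAs at 1 IgG site, a log2 ratio of 1.50 (0.10 to 2.91). Both intervals are wide, and the size of either ratio is poorly fixed at this depth.

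MIR205HG, MIR31HG and MIR100HG did not take larger shares of the PDCD4 list. MIR205HG (chr1:209428817-209432848, plus strand) had 134 cDNAs at 39 sites for PDCD4 and 103 cDNAs at 36 sites for IgG, which is 3.27 and 3.73 per 10000 and a log2 ratio of -0.19 (-0.56 to 0.18). With scores above 5 alone, and list totals limited in the same way, its log2 ratio was -1.28 (-2.08 to -0.47), a lower share in the PDCD4 list. That value rests on 31 cDNAs at 5 PDCD4 sites and 19 cDNAs at 3 IgG sites. MIR31HG (chr9:21380073-21559891, minus strand), the host of miR-31, had 30 cDNAs at 13 PDCD4 sites and 29 cDNAs at 14 IgG sites, a log2 ratio of -0.52 (-1.24 to 0.20). MIR100HG (chr11:122028325-122556721, minus strand), the host of miR-100, let-7a-2 and miR-125b-1, had 160 cDNAs at 71 PDCD4 sites and 199 cDNAs at 83 IgG sites. Its shares were 3.91 and 7.21 per 10000, so that the log2 ratio was -0.88 (-1.18 to -0.58), lower in the PDCD4 list. At 3 of the 71 PDCD4 sites of MIR100HG the label also named BLID.

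**Figure D1:**
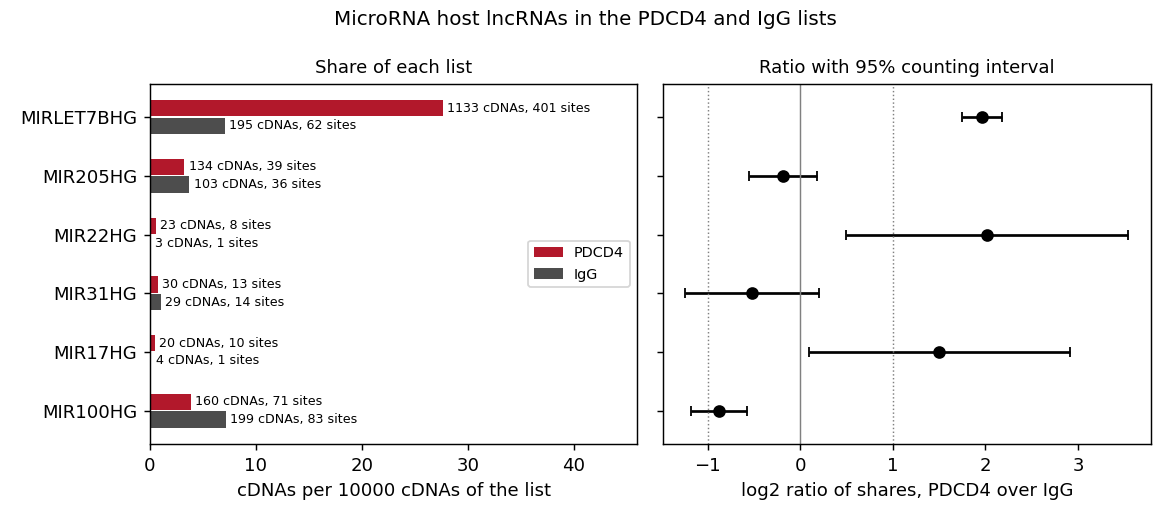
Left, summed cDNAs of each host per 10000 cDNAs of its list (bars, PDCD4 red and IgG grey), with the cDNAs and sites behind each bar. Right, log2 ratio of the shares, PDCD4 over IgG, with its 95% counting interval (points and bars), a solid line at equal shares and dotted lines at 2-fold. MIRLET7BHG stands at 1.96 with a narrow interval, MIR22HG (2.02) and MIR17HG (1.50) also lie above 0 with wide intervals, and MIR100HG lies below 0.

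In counts, 3 of the 6 hosts were at least 2-fold higher in the PDCD4 list, against 16.4% of the 7305 genes with at least 20 cDNAs over both lists and 14.8% of the 271 lncRNA genes among them. With a pseudocount of 5 the log2 ratio of MIR17HG was 0.91 (-0.19 to 2.01), below 2-fold, which left 2 of the 6. MIR22HG and MIR17HG reached 20 cDNAs through the PDCD4 list (23 and 20 cDNAs, against 3 and 4 for IgG). The 6 hosts were also chosen with earlier results of these data known. The count of 3 therefore does not speak for host lncRNAs as a class. None of the 6 was at least 2-fold lower, against 16.1% of all genes and 23.6% of lncRNA genes. A log2 ratio above 0 was found for 3 of the 6, against 46.2% of all genes tested and 40.6% of lncRNA genes. The intervals of 2 hosts, MIR205HG and MIR31HG, included 0. The median log2 ratio was 0.66 over the 6 hosts, -0.10 over all genes tested and -0.21 over lncRNA genes tested. By ratio, MIR22HG ranked 14 and MIRLET7BHG 15 among the 271 lncRNA genes, followed by MIR17HG at 24, MIR205HG at 133, MIR31HG at 161 and MIR100HG at 193. Among the 41 lncRNA genes with at least 100 cDNAs, 6 were at least 2-fold higher, and the median log2 ratio of the 41 was -0.45. MIRLET7BHG did not have the highest ratio of the 41. The lncRNA genes nearest to MIRLET7BHG in ratio, out of 40 candidates with at least 100 cDNAs, were SNHG16 (121 and 25 cDNAs, log2 ratio 1.66), RP11-44N21.4 (157 and 38 cDNAs, 1.45) and STAG3L5P-PVRIG2P-PILRB (130 and 40 cDNAs, 1.11).

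Sites were then set against the exons of the hosts, a position counting as exonic if any transcript of the gene has an exon there. In MIRLET7BHG, 364 of the 401 PDCD4 sites were intronic and 37 exonic. Exons held 103 of the 1133 cDNAs, a share of 9.09% (7.55% to 10.9%), and they make up 10.8% of the length of the gene. Per kb, exons carried 15.95 PDCD4 cDNAs and introns 19.2. For IgG the exonic share of cDNAs was 4.62% (2.45% to 8.54%), from 4 exonic and 58 intronic sites. All 12 PDCD4 sites of MIRLET7BHG with a score above 5 were intronic.

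MIR205HG was the reverse, with 38 of 39 PDCD4 sites and 34 of 36 IgG sites in exons of at least 1 of its 17 transcripts, which is 96.3% and 93.2% of cDNAs. Exons cover 87.6% of this 4032-nt gene when all transcripts are joined. If a position counted as intronic wherever any transcript has an intron, the shares were 3.73% and 5.83%, so these data do not separate spliced from unspliced MIR205HG RNA. In MIR17HG, 9 of 10 PDCD4 sites lay in an exon, but none did when introns were given precedence. MIR22HG had 6 of its 23 PDCD4 cDNAs in an exon and 17 in introns. MIR31HG had none of its 13 PDCD4 and 14 IgG sites in an exon, and 11 and 12 of these lay in its intron 2, the intron of 65460 nt downstream of exon block 2. In MIR100HG, exons held 4.38% (2.14% to 8.75%) of PDCD4 cDNAs and 13.1% (9.07% to 18.5%) of IgG cDNAs.

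Over the 6 hosts together, 89 of 542 PDCD4 sites were exonic (16.4%, 13.5% to 19.8%) and 48 of 197 IgG sites (24.4%, 18.9% to 30.8%). Without MIRLET7BHG the shares were 36.9% and 32.6%, beside 29.6% and 31.1% for sites in all other lncRNA genes. MIRLET7BHG supplied 364 of the 453 intronic PDCD4 sites, but it was not the only intron-rich host. PDCD4 sites were also mainly intronic in MIR100HG (68 intronic, 3 exonic), MIR31HG (13 and 0) and MIR22HG (6 and 2). Of the 52 exonic PDCD4 sites outside MIRLET7BHG, 38 lay in MIR205HG.

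Along MIRLET7BHG the signal was not even. The first 20 kb had 30 PDCD4 cDNAs at 12 sites and 24 IgG cDNAs at 6 sites, a log2 ratio of -0.26 (-1.02 to 0.50). From 20 kb to the end there were 1103 PDCD4 cDNAs at 389 sites and 171 IgG cDNAs at 56 sites, a log2 ratio of 2.11 (1.88 to 2.35). The first stretch thus held 2.65% of the PDCD4 cDNAs of the gene (1.86% to 3.75%) and 12.3% of its IgG cDNAs (8.41% to 17.7%). Of the 9 annotated transcripts, 2 start within these 20 kb and 7 start at 46080312 or further downstream.

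**Figure D2:**
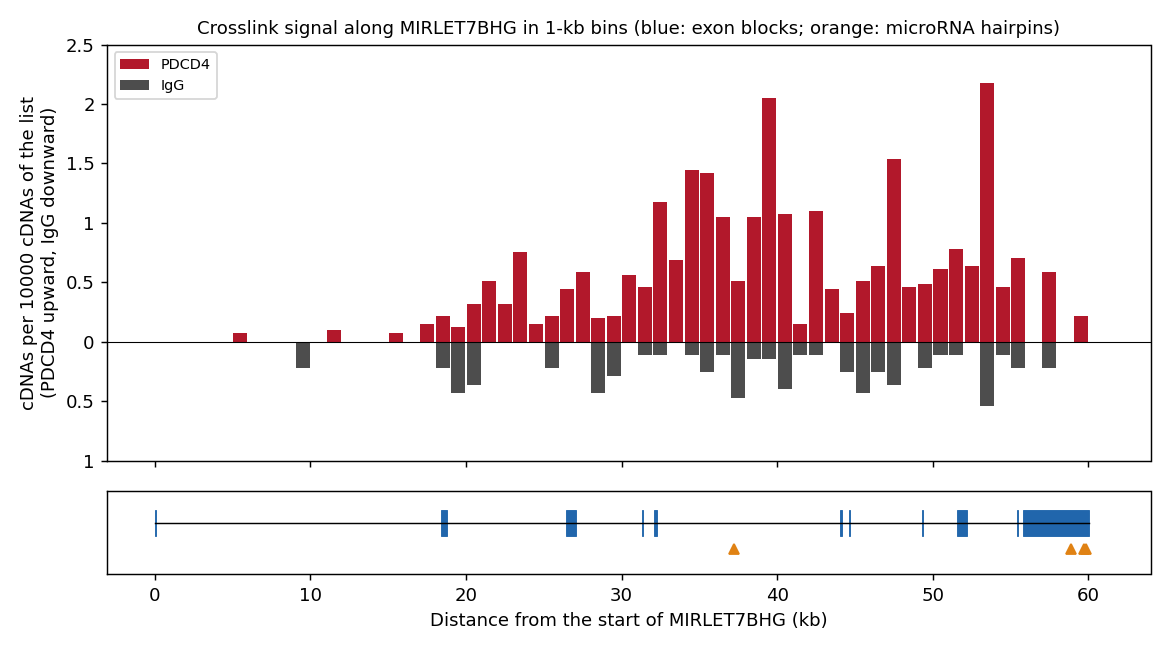
cDNAs per 10000 cDNAs of the list in 1-kb bins along MIRLET7BHG, with PDCD4 drawn upward in red and IgG downward in grey, against the distance from the start of the gene in kb. Below, exon blocks of all transcripts joined (blue) and microRNA hairpins (orange triangles, MIR3619 alone in the middle and the other 3 at the end). PDCD4 signal is sparse over the first 20 kb (30 cDNAs) and runs from there to the end of the gene (1103 cDNAs).

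The introns of MIRLET7BHG, numbered between the joined exon blocks, showed where this signal lay. Intron 5 (chr22:46086161-46097925, 11765 nt), which contains MIR3619, had 489 PDCD4 cDNAs at 179 sites and 51 IgG cDNAs at 15 sites. That was 41.6 and 4.33 cDNAs per kb, and 43.2% and 26.2% of the cDNAs of the gene. Its log2 ratio was 2.67 (2.26 to 3.08), and without this intron the ratio of the whole gene was 1.59. Intron 9 followed with 137 and 24 cDNAs (log2 ratio 1.90, 1.28 to 2.51; 42.9 PDCD4 cDNAs per kb). Introns 2, 3, 7 and 8 had log2 ratios from 1.11 to 1.49, with 53 to 135 PDCD4 and 12 to 36 IgG cDNAs each. The excess was therefore present in each of these 6 introns and was largest in the one that holds MIR3619.

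A pair of exon blocks of MIRLET7BHG carried most of its exonic signal. Block 9 (chr22:46105409-46106070, 662 nt), the end of most annotated transcripts, had 40 PDCD4 cDNAs at 14 sites, or 60.4 per kb, and no IgG site was listed in it. Block 11 (chr22:46109671-46113928, 4258 nt), the last exon with let-7a-3, miR-4763 and let-7b, had 36 PDCD4 cDNAs at 12 sites and 6 IgG cDNAs at 3 sites, a log2 ratio of 1.83 with the lower end of its interval at 0.67. At 8.45 cDNAs per kb, the exon that encodes let-7 was among the sparser stretches of the gene for PDCD4.

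Many PDCD4 sites in MIRLET7BHG lay next to each other. Of the 401 sites, 122 (30.4%) were directly adjacent to another, against 8 of 62 IgG sites (12.9%). Adjacency can rise with the density of sites, and the lists were not matched for it. The adjacent shares for PDCD4 and IgG were 41.0% and 50.0% in MIR205HG, 0% and 14.3% in MIR31HG, and 15.5% and 0% in MIR100HG. In MIRLET7BHG, sites within 20 nt joined into 230 PDCD4 and 54 IgG clusters. The largest PDCD4 cluster, chr22:46093376-46093404 in intron 5, had 11 sites and 44 cDNAs, and its top site (46093378) had the highest member score, 9. The 30 nt downstream of 9 of these 11 sites occur more than once in the genome. Across the gene this held for 20 PDCD4 sites with 77 cDNAs and for no IgG site, and it held for 6 of the 12 sites scored above 5. Leaving out such sites gave a log2 ratio of 1.86 (1.64 to 2.08). Only exact copies of the 30 nt were counted, so sites in diverged repeats could remain. The second cluster, chr22:46101090-46101109 in intron 7, had 9 sites and 27 cDNAs in sequence without a further exact copy. These leading sites are shown with 14 nt on either side, 5′ to 3′ on the transcribed strand, with the listed position in capitals, beside the highest IgG site of the gene (46073053, score 7) for contrast:
PDCD4, 46093378, score 9: cccaactgcttgggTttctttttttttgg
PDCD4, 46101106, score 7: tttttattttctatTtttttggagacggg
PDCD4, 46107086, score 7: catgcttcccacacCtcgccctggtccct
IgG, 46073053, score 7: agattgaaatatttCatttacttcctaaa

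The first 2 lie beside runs of T and the third is rich in C. Over all PDCD4 sites of MIRLET7BHG the listed position was a U in 45.4% (40.6% to 50.3%), where T makes up 22.4% of the gene. A run of 5 T on the transcribed strand (TTTTT, a motif chosen after the values were seen) occurred in the 31 nt around 16.7% of PDCD4 sites (13.4% to 20.7%) and 17.7% of IgG sites (10.2% to 29.04%), against 4.60% of all windows of that length in the gene. The share near PDCD4 sites lay within the interval for IgG. Over the 6 hosts, U stood at 48.5% of PDCD4 sites (44.3% to 52.7%) and 45.7% of IgG sites (38.9% to 52.7%), beside 46.7% and 51.6% of all sites in the respective lists.

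MIR205HG, whose interval included equal shares of the lists, was the most densely cross-linked host, with 33.2 PDCD4 and 25.5 IgG cDNAs per kb. The listed sites of PDCD4 and IgG lay mainly in different stretches of it. The removal of IgG sites from PDCD4 described in the methods can lower PDCD4 counts where IgG sites lie. Its part in this difference was not tested. In the first 1.5 kb PDCD4 had 10 cDNAs at 3 sites and IgG 57 cDNAs at 20 sites, a log2 ratio of -2.97 (-3.90 to -2.04). Between 1.5 and 3.0 kb PDCD4 had 114 cDNAs at 33 sites and IgG 39 cDNAs at 14 sites, a log2 ratio of 0.96 (0.44 to 1.47). This middle stretch held 85.1% of the PDCD4 cDNAs of the gene (78.1% to 90.1%) and 37.9% of its IgG cDNAs (29.1% to 47.5%). The limits of these stretches were set after the profile was seen.

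**Figure D3:**
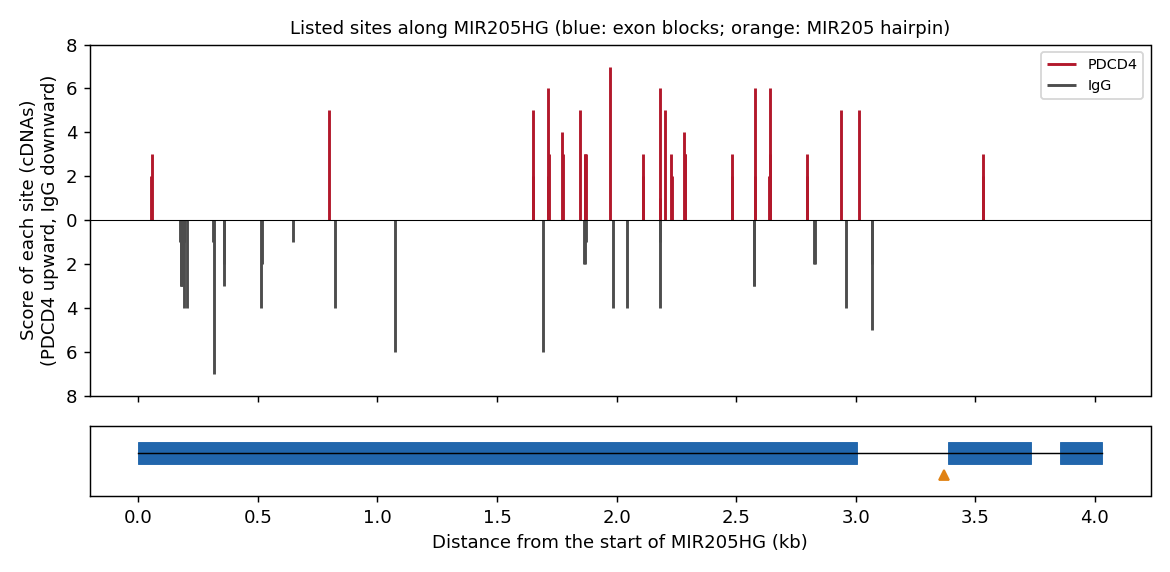
Score of each listed site (cDNAs) along MIR205HG against the distance from the start of the gene in kb, PDCD4 upward in red and IgG downward in grey, with joined exon blocks (blue) and the MIR205 hairpin (orange triangle) below. IgG sites crowd the first 1.5 kb (57 cDNAs against 10 for PDCD4), and PDCD4 sites lie mainly between 1.5 and 3.0 kb (114 cDNAs against 39).

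The largest IgG cluster of MIR205HG, chr1:209428993-209429019, had 11 sites and 27 cDNAs over a run of T, where PDCD4 had no listed site. PDCD4 positions that coincide with IgG sites may have been removed before peaks were called. That limit applies to this cluster and to the TTTTT shares below. The largest PDCD4 cluster, chr1:209430666-209430690, had 5 sites and 16 cDNAs, and IgG sites were listed within it too, with the position 209430685 in both lists (3 cDNAs for PDCD4, 1 for IgG). All 5 PDCD4 sites scored above 5 lay between 1.5 and 3.0 kb, the highest (209430791) with a score of 7. TTTTT occurred near 5.13% of PDCD4 sites (1.42% to 16.9%) and 41.7% of IgG sites (27.1% to 57.8%) of this gene, against 8.65% of its windows. Of the 15 IgG sites with TTTTT, 11 belonged to the largest IgG cluster, and without the largest cluster of each list TTTTT was near 2 of 34 PDCD4 sites and 4 of 25 IgG sites, with overlapping intervals. The log2 ratio of the first 1.5 kb was then -2.06 (-3.05 to -1.07). The top sites of these clusters show the contrast, with the listed position in capitals:
IgG, 209429007, score 4: cttactttttttttTtttctgacagggtc
PDCD4, 209430666, score 5: tcatttcctcctacCatcccaggccatca

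MIR100HG spreads its sites thinly over 528397 nt, with 0.30 PDCD4 and 0.38 IgG cDNAs per kb and no score above 5 in either list. The lists parted here too. Intron 24 (chr11:122116324-122154199), which contains MIR100 and MIRLET7A2, had 63 PDCD4 cDNAs at 27 sites and 31 IgG cDNAs at 13 sites, a log2 ratio of 0.43 (-0.18 to 1.04) whose interval includes 0. It supplied 39.4% of the PDCD4 cDNAs of the gene and 15.6% of its IgG cDNAs. Intron 21 (chr11:122157114-122174245), upstream of it in the direction of transcription, had 33 IgG cDNAs at 15 sites, and no PDCD4 site was listed there. The part of the removal of IgG sites from PDCD4 in this absence was not tested. TTTTT was near 26.8% of PDCD4 sites (17.9% to 38.1%) and 20.5% of IgG sites (13.2% to 30.4%), against 9.56% of windows.

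No PDCD4 site fell within any of the 16 hairpins. The nearest came from MIR17HG, where a site of 3 cDNAs (91350887) lay 4 nt upstream of the MIR19A hairpin and 66 nt downstream of MIR18A. It is shown because it is the closest approach to a hairpin, with the listed position in capitals, and the hairpin begins 4 nt after that position:
PDCD4, 91350887, score 3: ttttaatagtttttGtttgcagtcctctg

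A further 3 PDCD4 sites lay 76, 77 and 138 nt upstream of MIR17, the first hairpin of the cluster, with 2, 2 and 3 cDNAs. Thus 4 of the 10 PDCD4 sites of MIR17HG, with 10 of its 20 cDNAs, were within 500 nt of a hairpin, while its sole IgG site lay 3064 nt downstream of MIR92A1.

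In MIRLET7BHG, 5 PDCD4 sites with 11 cDNAs lay 35 to 76 nt upstream of MIR3619, and 11 sites with 30 cDNAs lay within 500 nt of it. IgG had 5 sites with 16 cDNAs in the same window. These included the sole member site inside a hairpin, at 46091101 with 3 cDNAs, which falls within miR-3619-3p (chr22:46091090-46091111). The let-7 hairpins had fewer sites. PDCD4 was listed 51 nt downstream of MIRLET7B, 114 nt upstream of MIR4763 and 348 nt downstream of MIRLET7A3, each at 1 site of 3 cDNAs, and the nearest IgG site to any of the 3 was 1535 nt away. The PDCD4 site nearest to MIR3619 is shown with the listed position in capitals:
PDCD4, 46091009, score 3: tccacttcaggactCatccgagaggttgt

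For the remaining hairpins, PDCD4 sites were nearest at 109 nt downstream of MIR205 (2 cDNAs, with 3 cDNAs at the next position), 106 nt upstream of MIRLET7A2, 406 nt downstream of MIR100, 834 nt upstream of MIR22, 1474 nt downstream of MIR125B1 and 8571 nt downstream of MIR31. The nearest IgG sites were 246, 1564, 643, 1618, 1156 and 1393 nt from the same hairpins. PDCD4 sites thus came within 500 nt of 13 of the 16 hairpins and IgG sites of 2, with more than double the number of PDCD4 sites to place, and the 6 hairpins of MIR17HG share the same few sites.

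**Figure D4:**
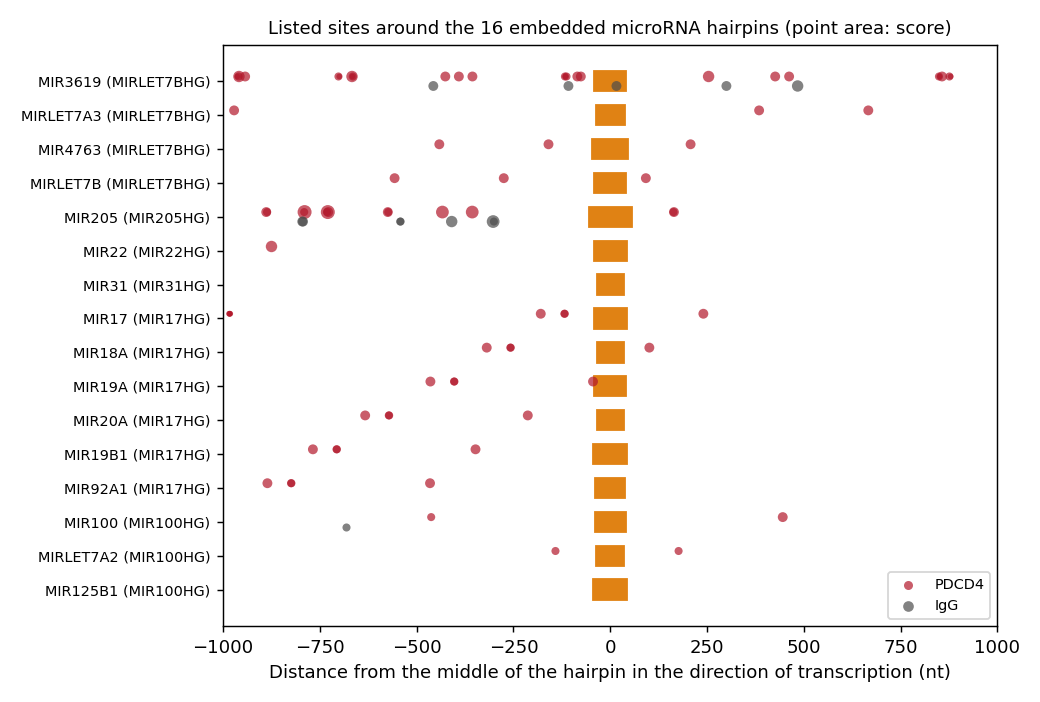
Listed sites within 1000 nt of the middle of each of the 16 hairpins (orange boxes, host gene in brackets), as distance in nt in the direction of transcription, with PDCD4 in red, IgG in grey and point area proportional to score. The 5 PDCD4 sites just upstream of MIR3619, the PDCD4 site 4 nt before MIR19A and the IgG site within MIR3619 are visible, and MIR31 and MIR125B1 have no site in range.

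As a share, sites within 500 nt of a hairpin had overlapping intervals in the lists. They were 26 of 542 PDCD4 sites (4.80%, 3.29% to 6.94%) and 10 of 197 IgG sites (5.08%, 2.78% to 9.09%), in windows that make up 1.34% of the length of the hosts. Sites and length are distributed differently over the hosts, MIR100HG being the longest, so 1.34% is not an expected share for the pooled sites. Within 1000 nt the shares were 11.1% (8.70% to 13.99%) for PDCD4 and 6.60% (3.90% to 10.96%) for IgG. Within MIRLET7BHG the PDCD4 share was 3.49% (2.09% to 5.77%) in windows covering 4.60% of the gene. Other genes with an embedded hairpin and a listed site had 3.10% of their PDCD4 sites (2.87% to 3.35%, 812 genes) and 2.33% of their IgG sites (2.09% to 2.60%, 769 genes) within 500 nt. Their windows made up 0.84% and 0.78% of their length, pooled over genes in the same way.

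Further gene lists put the hosts beside their pathway. Of 16 other lncRNA genes named as microRNA hosts, 7 had at least 20 cDNAs. None of the 7 was 2-fold higher for PDCD4, 2 were 2-fold lower, and the median log2 ratio of the 7 was -0.57. The lower genes were MIR181A1HG (21 and 42 cDNAs, log2 ratio -1.53, -2.28 to -0.79) and MIR181A2HG (8 and 13 cDNAs, -1.21). The interval of MIR181A2HG, -2.41 to 0.003, included 0. MIR4435-2HG had 131 PDCD4 and 103 IgG cDNAs (-0.22), and MIR222HG, the host of miR-221 and miR-222, had 64 and 27 (0.65, 0.01 to 1.29). MIR34AHG had 29 cDNAs in each list (-0.57), MIR646HG 48 and 51 (-0.65) and MIR99AHG 23 and 14 (0.11).

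Of 20 genes of microRNA processing and function, 18 had a listed site and 15 at least 20 cDNAs, of which 1 was 2-fold higher (TNRC6C, an Argonaute partner in silencing, 45 and 8 cDNAs, 1.79) and 1 was 2-fold lower (DICER1, 41 and 81 cDNAs, -1.53). Their median log2 ratio was -0.24. DROSHA (-0.41), XPO5 (0.06), AGO1 (-0.24) and AGO2 (278 and 206 cDNAs, -0.14) had intervals that included 0, while DGCR8 (-0.61), AGO3 (-0.90), ZCCHC11 (-0.95) and TNRC6A (-0.45) were lower with intervals below 0, as was DICER1. TNRC6B (-0.11), DIS3L2 (-0.19), XRN2 (-0.35) and ZCCHC6 (0.70) had intervals that included 0. KHSRP, an RNA-binding protein that promotes let-7 maturation, was at 0.68 (0.19 to 1.16), and LIN28A and LIN28B, which block it, had no listed site.

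Of 18 protein-coding hosts, 17 had at least 20 cDNAs, of which MCM7, whose introns hold the miR-106b cluster, was 2-fold higher (48 and 15 cDNAs, 1.05), and VMP1, the host of miR-21 (35 and 87 cDNAs, -1.86), and PTK2 (191 and 277 cDNAs, -1.10) were 2-fold lower. Their median was -0.33. No tested gene of these 3 lists had a log2 ratio as high as the 1.96 of MIRLET7BHG, and the difference was not tested.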

How the data were processed

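MCF10A cells were cross-linked with UVC and immunoprecipitated with PDCD4 antibody or IgG (2 replicates each). The authors processed the reads with iCount on the Ensembl release 88 genome (GRCh38), and settings for alignment and cDNA collapsing are not given in the sources used here. The deposited values are raw cDNA counts at 1-nt sites, not normalized, with replicates merged into 1 list per antibody and only sites that passed the peak calling. The lists total 409308 (PDCD4) and 276139 (IgG) cDNAs. The removal of IgG sites from PDCD4 described in the methods can lower PDCD4 counts but not IgG counts. The filter on scores above 5 is not applied in the deposited lists.

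Sites were assigned to genes by the authors' label (99.7% of identifiers known) and to exons, introns and hairpins by GENCODE release 44, a later release on the same build. Ratios are of summed counts plus 1 over list totals, with normal-approximation counting intervals, and shares have Wilson intervals. PCR copies and replicate spread are not covered. A ratio of at least 2-fold was called in genes with at least 20 cDNAs. No p-value was computed, since each list pools its replicates. Named were the 6 members, their hairpins, other MIR...HG genes and genes of the pathway list with at least 20 cDNAs, VMP1 and MCM7, and the 3 lncRNA genes of at least 100 cDNAs nearest in ratio to the leading member. PTK2, MIR205HG stretches, clusters and the TTTTT motif were chosen after their values were seen, as were LIN28A and LIN28B for having no site. The members and lists were chosen with earlier results of these data known. Alternatives covered score filters, site numbers, totals, pseudocounts, labels, merging, transcripts and windows. The ratio was tested on simulated data. Versions were Python 3.11.15, pandas 2.3.3, numpy 2.4.6, matplotlib 3.10.9 and scipy 1.17.1.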

Additional observations from a re-analysis of the deposited data

How the results depend on the processing

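No paired analysis was possible because each list merges its replicates, and for the same reason no replicate could be left out. No log2 ratio changed sign among those whose interval lay on 1 side of 0, and 57 of 63 alternative values stayed within the counting interval of the reported value. The interval of MIR17HG included 0 with scores of at least 2 (log2 ratio 1.21), with numbers of sites (1.95), with merged sites (1.22) and with a pseudocount of 5 (0.91, below 2-fold), and that of MIR22HG included 0 with numbers of sites (1.66). MIRLET7BHG fell to 1.47 with scores above 5, 1.65 with sites within 20 nt merged and 1.59 without the intron that holds MIR3619 (range over alternatives 1.47 to 2.16). MIR205HG fell to -1.28 with scores above 5, from 5 PDCD4 and 3 IgG sites, and its interval then excluded equal shares, unlike the reported one. For scores above 5 the list totals were limited in the same way. It was 0.06 without the largest clusters. Without the largest cluster of each list MIR22HG was at 3.68 and MIR17HG at 3.52, but no IgG site was then left and these values rest on the pseudocount. Scores above 5 gave no value for MIR22HG, MIR31HG, MIR17HG and MIR100HG. The alternatives without repeated sequence, the MIR3619 intron or the largest clusters were added after seeing the data.

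Exonic shares depended on the transcripts. With introns given precedence, the PDCD4 share of cDNAs was 3.53% in MIRLET7BHG, 3.73% in MIR205HG and 0% in MIR22HG, MIR17HG and MIR100HG, and the IgG share was 5.83% in MIR205HG and 0% in MIR17HG and MIR100HG. With 1 transcript per gene it was 3.71% in MIRLET7BHG for PDCD4, and 0% in MIR17HG and MIR100HG for both lists. With scores above 5 it was 0% in MIRLET7BHG and 100% in MIR205HG for both lists. The share of member sites in exons was 29.4% (PDCD4) and 75.0% (IgG) with scores above 5, 2.95% and 2.54% with introns given precedence, and 10.1% and 18.8% with 1 transcript per gene. The share near hairpins was 2.95% and 2.03% within 250 nt, 11.1% and 6.60% within 1000 nt, and 0% in both lists with scores above 5. U stood at 58.8% of PDCD4 positions with scores above 5 and at 41.1% 1 nt upstream. With 3 and 4 IgG cDNAs, MIR22HG and MIR17HG are limited by depth.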

Other observations

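Over the whole genome, sites within annotated microRNA hairpins were rare in both lists. PDCD4 had 42 sites with 115 cDNAs in 33 of 1879 hairpins, and IgG had 21 sites with 57 cDNAs in 16 hairpins.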
